A study of Mus musculus with 8 samples.

Results

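The AP-1 and EGR immediate early genes form a set of 10 genes: Fos, Fosb, Jun, Junb, Jund, Egr1, Egr2, Ier2, Dusp1 and Btg2. They were chosen by name, each matched 1 of the 25700 Ensembl identifiers in the count tables, and all 10 were among the 14154 genes that passed the filter on low counts. They were measured by RNA-seq in brain endothelial cells of C57BL/6 pups at postnatal day 6, isolated by fluorescence-activated sorting. The 4 KO pups are labelled GLUT1EC-/-, that is, deleted for the glucose transporter GLUT1 in endothelial cells, and the 4 WT pups are labelled wild-type littermates. The sources used here do not give the Cre line that drives the deletion, whether the WT pups carry the floxed allele or Cre, or the time from dissection to lysis. Pups are named by the number in their titles, which are 1 to 4 for KO and 1, 2, 3 and 5 for WT. Each library is a pup of its own, and p values measure the spread between these pups.

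Immediate early genes are transcribed within minutes of a stimulus, without new protein synthesis, when kinase cascades act on factors already bound to their promoters. Fos and Jun family proteins pair through leucine zippers to form the AP-1 transcription factor, and EGR proteins are zinc finger transcription factors induced by the same signals. The set is also known as a mark of tissue dissociation, because enzymatic digestion and sorting can induce it before cells are lysed. Btg2 and Dusp1 are in addition known targets of p53, the factor that activates Cdkn1a, Ccng1 and Mdm2.

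Of the 10 genes, Egr1 and Ier2 were not searched for promoter motifs. For the other 8, 12 RefSeq promoter windows (GRCm38.p6, the 250 bases before an annotated start) were used. They were searched on both strands for 4 motifs: the CArG box bound by serum response factor, the cyclic AMP response element TGACGTCA, the AP-1 site TGANTCA and the EGR site GCGNGGGCG. Of these 8 genes, a CArG box was found in 1 (Egr2), TGACGTCA in 2 (Btg2 and Dusp1), GCGNGGGCG in 2 (Btg2 and Fosb) and TGANTCA in 0. Among 32851 windows of the same length over all genes, these motifs were present in 1.47%, 1.55%, 4.70% and 6.75%, respectively. A match was present in 7 of the 12 windows, 4 of them windows of Egr2. For each of the 4 genes, 1 window with a match is shown, because sites of these kinds are known to act in the induction of early genes. Capitals mark the matches, which do not overlap each other, and bases inside annotated exons were left out.
Egr2 (chr10:67537619-67537868, plus strand): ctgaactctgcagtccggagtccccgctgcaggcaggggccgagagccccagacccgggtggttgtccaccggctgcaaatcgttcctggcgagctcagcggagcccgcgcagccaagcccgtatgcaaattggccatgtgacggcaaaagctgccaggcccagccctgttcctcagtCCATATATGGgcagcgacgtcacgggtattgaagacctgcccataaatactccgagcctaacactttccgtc
Btg2 (chr1:134079156-134079405, minus strand): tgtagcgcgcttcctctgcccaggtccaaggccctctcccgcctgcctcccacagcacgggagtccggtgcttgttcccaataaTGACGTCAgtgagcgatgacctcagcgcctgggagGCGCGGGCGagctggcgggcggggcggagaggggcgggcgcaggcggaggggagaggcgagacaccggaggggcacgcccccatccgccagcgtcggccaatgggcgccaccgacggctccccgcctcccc
Dusp1 (chr17:26508520-26508722, minus strand): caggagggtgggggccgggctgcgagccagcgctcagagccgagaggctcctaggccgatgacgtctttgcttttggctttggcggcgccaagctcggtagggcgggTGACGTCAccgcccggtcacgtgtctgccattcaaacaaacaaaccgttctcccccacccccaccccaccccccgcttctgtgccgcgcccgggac
Fosb (chr7:19310052-19310295, minus strand): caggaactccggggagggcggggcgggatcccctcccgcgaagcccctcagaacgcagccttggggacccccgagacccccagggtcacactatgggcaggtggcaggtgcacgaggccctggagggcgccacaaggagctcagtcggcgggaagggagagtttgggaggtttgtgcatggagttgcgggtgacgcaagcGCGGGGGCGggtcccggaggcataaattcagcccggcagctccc
The CArG box of Egr2 begins 72 bases before that start and lies in 3 overlapping windows, while the window of an upstream start (chr10:67537316-67537565) holds a different CArG box. The cyclic AMP response element begins 166 bases before the start of Btg2 and 143 bases before that of Dusp1, and the EGR site begins 131 bases before the start in Btg2 and 50 bases before it in Fosb. These matches are a description of the windows. Only exact matches were counted, so a window without a match can hold a close variant of a motif. For example, the windows of Jun and Fos hold tgacatca and tgacgtag, which resemble TGACGTCA. Known elements farther upstream were not searched.

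The libraries held 20858070 (KO pup 1) to 114007737 counts (WT pup 2). At least 1 count was seen for 13624 genes in KO pup 1 and for 15756 to 17082 genes elsewhere. The targeted gene Slc2a1 measured 1386 to 1602 CPM (read counts relative to the library total, scaled by TMM) in the KO pups and 2238 to 3726 CPM in the WT pups, without overlap. Endothelial markers were abundant in all libraries, with a summed level over 8 of 8 markers of 12083 to 13483 CPM in KO and 12615 to 13884 CPM in WT. Of these 8, 0 were called by edgeR and 2 were at an unadjusted p of 0.05. The groups did not overlap for 3 of the 8, beside 7.19% of all tested genes. Of other cell types, 0 markers were called by edgeR, where 0.389% of all tested genes were. Log2 fold changes were positive for 12 of 12 microglial and macrophage markers (median 0.24, 3 at an unadjusted p of 0.05). They were positive for 5 of 6 astrocyte markers (median 0.99, 5 at an unadjusted p of 0.05). Of all tested genes, 11.1% were at an unadjusted p of 0.05. Summed astrocyte levels were 307 to 408 CPM in KO and 315 to 377 CPM in WT. By the titles, the 4 KO pups and WT pup 5 shared a cage and WT pups 1, 2 and 3 came from another. The labels of the files differ from the titles here: they place WT pup 3 with the KO pups and WT pup 5 in the other cage.

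The immediate early genes were detected in every library, varied widely between pups and overlapped between genotypes. WT pup 3 was the lowest library for 9 of the 10 genes and WT pup 2 the highest for 6. In the edgeR quasi-likelihood test of KO against WT, 0 of the 10 passed an adjusted p of 0.05, where 0.389% of all tested genes did. At an unadjusted p of 0.05 the count was also 0, beside 11.1% of all tested genes. With DESeq2 and with limma-voom it was 0 at the adjusted threshold, which 2.2% and 0.509% of genes passed. For none of the 10 were the KO pups separated from the WT pups, against 7.19% of all tested genes. Fitted log2 fold changes were positive for 9 of the 10, with a median of 0.16, beside 50.3% and a median of 0.00 over all tested genes.

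**Figure D1:**
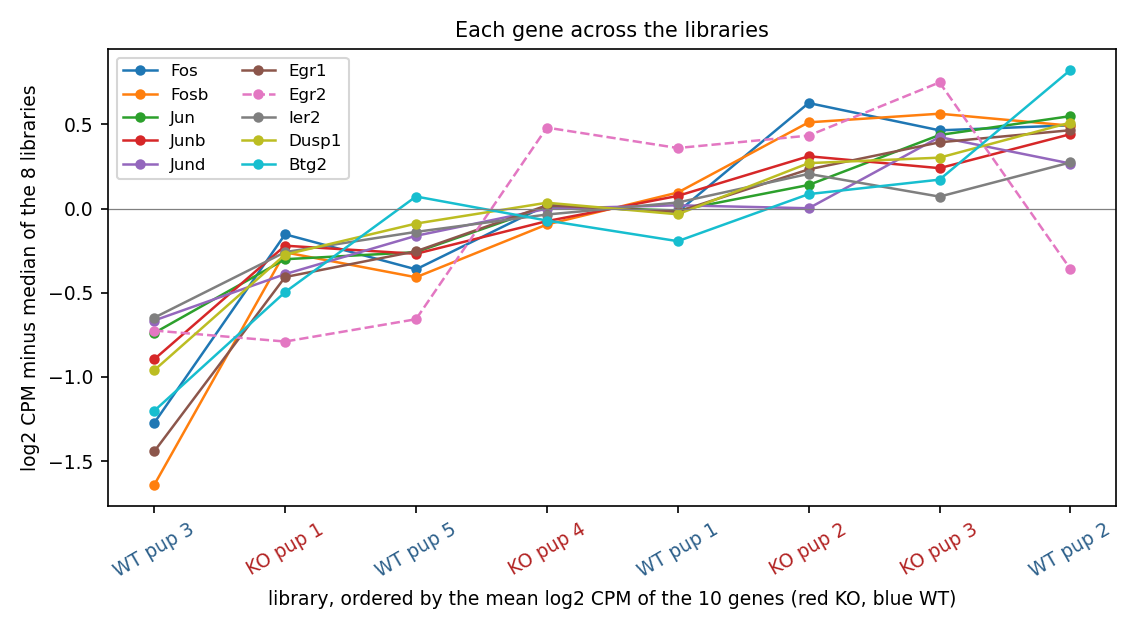
Level of each of the 10 genes in each library, as log2 CPM minus the gene's median over the 8 libraries (vertical axis), with libraries ordered by the mean log2 CPM of the set (horizontal axis; red labels KO, blue labels WT). The lines run together except that of Egr2 (dashed), and WT pups 3 and 2 stand at opposite ends.

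Among the Fos family, Fos (ENSMUSG00000021250; GRCm38 chromosome 12, 85473890 to 85477273, plus strand), whose protein pairs with Jun proteins in AP-1, measured 784, 1345, 1202 and 884 CPM in KO pups 1 to 4. In WT pups 5, 1, 2 and 3 it measured 678, 859, 1228 and 361 CPM. The 2 highest WT values lay within the KO range, and only WT pups 5 and 3 lay below every KO pup. Fos averaged 1054 ± 264 CPM over the KO pups (SD, n = 4) and 781 ± 362 CPM over the WT pups (SD, n = 4). The log2 fold change of Fos was 0.43 (SE 0.30, 95% interval -0.23 to 1.09, edgeR adjusted p 0.657). Fosb (ENSMUSG00000003545; chromosome 7, 19302696 to 19310051, minus strand), its paralog and another partner of Jun proteins, measured 284, 485, 502 and 318 CPM in KO pups 1 to 4 and 256, 363, 478 and 109 CPM in WT pups 5, 1, 2 and 3. The groups overlapped, and the lowest value was again that of WT pup 3, 4.39 times below WT pup 2. The log2 fold change of Fosb was 0.40 (SE 0.36, 95% interval -0.39 to 1.18, edgeR adjusted p 0.747).

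Of the Jun family, Jun (ENSMUSG00000052684; chromosome 4, 95049034 to 95052222, minus strand), which binds DNA as a homodimer or with Fos proteins, measured 1053, 1429, 1756 and 1308 CPM in KO pups 1 to 4. In WT pups 5, 1, 2 and 3 it measured 1084, 1287, 1898 and 777 CPM, so that the highest and the lowest values were both WT. Its log2 fold change was 0.14 (SE 0.23, 95% interval -0.38 to 0.65, edgeR adjusted p 0.889). Junb (ENSMUSG00000052837; chromosome 8, 84974484 to 84978718, minus strand), a Jun protein that can also restrain Jun activity, measured 582, 841, 801 and 644 CPM in KO pups 1 to 4. Its WT values were 563, 715, 921 and 365 CPM in pups 5, 1, 2 and 3, in the same order as those of Fos. Jund (ENSMUSG00000071076; chromosome 8, 70698949 to 70700616, plus strand), the most constitutively expressed Jun gene, measured 264, 347, 465 and 346 CPM in KO pups 1 to 4 and 309, 351, 417 and 218 CPM in WT pups 5, 1, 2 and 3. The log2 fold changes of Junb and Jund were 0.16 (95% interval -0.35 to 0.67) and 0.13 (95% interval -0.30 to 0.56). Exons of Jun, Junb and Jund overlap genes on the opposite strand (Junos, Prdx2 and Gm11175), as do 11 bases of Dusp1 (Ergic1), and as the strand setting of the counting is not given, reads of the overlaps could not be told apart.

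The 2 EGR genes had different patterns. Egr1 (ENSMUSG00000038418; chromosome 18, 34859823 to 34864984, plus strand), the most widely induced EGR factor, measured 272, 424, 474 and 366 CPM in KO pups 1 to 4 and 303, 356, 498 and 133 CPM in WT pups 5, 1, 2 and 3. Its log2 fold change was 0.25 (SE 0.31, 95% interval -0.43 to 0.94, edgeR adjusted p 0.831). Egr2 (ENSMUSG00000037868; chromosome 10, 67535475 to 67542188, plus strand), known for its roles in hindbrain patterning, myelination and immune cells, measured 18.8, 43.8, 54.6 and 45.3 CPM in KO pups 1 to 4. Its WT values were 20.6, 41.7, 25.3 and 19.6 CPM in pups 5, 1, 2 and 3. Egr2 was thus low in WT pup 2, where 6 of the other genes peaked, and lowest in KO pup 1. Its fitted difference was 0.60 on the log2 scale (SE 0.31, 95% interval -0.08 to 1.28, edgeR adjusted p 0.523). This was the largest value of the 10 genes in the fit of all pups, but without WT pup 2 it was 0.57, below 0.73 for Fos and 0.71 for Fosb. Markers of microglia, a cell type that can express Egr2, also varied between pups. The summed level of 12 of 12 microglial and macrophage markers, none at 0 in every library, was highest in KO pups 3 and 4 (3013 and 2201 CPM). It was lowest in WT pup 2 and KO pup 1 (1082 and 1133 CPM). In KO pup 2 and WT pups 5, 1 and 3 the sum was 1698, 1756, 1495 and 1536 CPM. Egr2 measured 43.8, 20.6, 41.7 and 19.6 CPM in these pups in the same order. It measured 54.6 and 45.3 CPM in KO pups 3 and 4, and 25.3 and 18.8 CPM in WT pup 2 and KO pup 1. Which cells the Egr2 transcripts came from was not tested. With the mean of the microglial markers as a term, the log2 fold change of Egr2 was 0.34 (edgeR adjusted p 0.626). This was below 0.60 without the term, and below that of Fos with it (0.50).

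The remaining 3 genes encode regulators other than AP-1 and EGR factors. Ier2 (ENSMUSG00000053560; chromosome 8, 84661331 to 84662852, minus strand), a nuclear protein of immediate early type, had the narrowest spread, at 254, 351, 319.8 and 297 CPM in KO pups 1 to 4 and 277, 312, 368 and 194 CPM in WT pups 5, 1, 2 and 3. Dusp1 (ENSMUSG00000024190; chromosome 17, 26505590 to 26562128, minus strand), a phosphatase that switches off mitogen-activated protein kinases, measured 622, 906, 927 and 769.9 CPM in KO pups 1 to 4. In WT pups 5, 1, 2 and 3 Dusp1 measured 707, 734, 1071 and 386 CPM. Btg2 (ENSMUSG00000020423; chromosome 1, 134075170 to 134079120, minus strand), an antiproliferative protein that promotes mRNA deadenylation, measured 292, 438, 464 and 393 CPM in KO pups 1 to 4 and 433, 361, 729 and 179 CPM in WT pups 5, 1, 2 and 3. The WT pups spanned a 4.07-fold range of Btg2, which enclosed all 4 KO pups. Log2 fold changes were 0.09 for Ier2 (95% interval -0.28 to 0.46), 0.15 for Dusp1 (95% interval -0.38 to 0.69) and -0.10 for Btg2 (95% interval -0.81 to 0.61). Btg2 was the single gene of the set with a fitted value below 0.

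**Figure D2:**
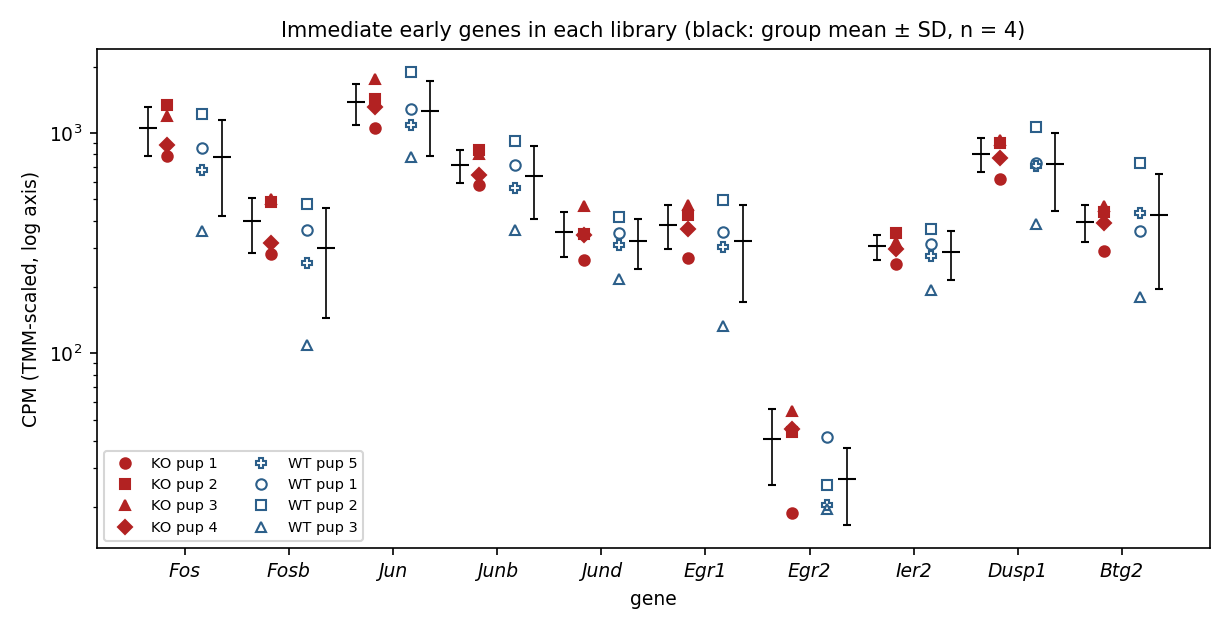
CPM of the 10 genes on a log axis, with 1 symbol per pup (filled red KO, open blue WT) and black bars for the group mean ± SD (n = 4 each). The groups overlap for every gene, and the open triangle of WT pup 3 is the lowest symbol for all but Egr2.

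Scaled by exon length, the set spanned a wide range of levels, from Jun to Egr2. Mean levels in WT were 396 ± 148 CPM per kb for Jun, 332 ± 154 for Fos, 279 ± 102 for Junb, 219 ± 84.5 for Dusp1, 194 ± 49.8 for Jund and 189 ± 47.9 for Ier2 (SD, n = 4 each). Below them came Btg2 at 155 ± 83.5, Egr1 at 71.9 ± 33.7, Fosb at 48.3 ± 25.2 and Egr2 at 7.88 ± 3.01 CPM per kb. Each neighbouring pair in this order overlapped between its lowest and highest WT pups, except Fosb (lowest 17.5) and Egr2 (highest 12.3 CPM per kb). In KO, Fos (448 ± 112) stood above Jun (435 ± 91.6 CPM per kb), by less than the spread of either.

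The size of the genotype difference depended on single WT pups. Without WT pup 3 the median log2 fold change of the set was -0.02 and 3 of 10 values were positive, whereas without WT pup 2 it was 0.40 and 10 were. Without KO pup 1 it was 0.26, without KO pup 3 it was 0.08, and with KO pup 1 and WT pup 2 both left out it was 0.51. In the last of these fits 8 of 10 genes were at an unadjusted p of 0.05, beside 11.9% of all tested genes. That fit leaves out the KO pup with the lowest mean of the set and the WT pup with the highest (8.28 and 9.03 log2 CPM). Leaving out both raises the difference by itself. The genes moved together between pups, so such counts of genes are not separate results. With cage as a term, the genotype difference rests on 1 WT pup, that of the KO cage, assumed to vary like the other pups. By the titles that pup was WT pup 5 and the median was 0.35. By the file labels it was WT pup 3, and the median was 1.06, with log2 fold changes of 1.55 for Fos and 1.87 for Fosb. Here 10 of 10 values were positive and 9 were at an unadjusted p of 0.05, beside 5.36% of all tested genes. Each of these fits called 0 of the 10 genes after adjustment, where 0.113% of all tested genes were called with the cages of the titles and 0.0707% with those of the file labels. The share called was 0.582%, 0.247% and 0.22% without KO pups 1, 2 and 3, 0.268%, 0.303% and 0.403% without WT pups 1, 2 and 3, and 0.531% without both KO pup 1 and WT pup 2.

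Between pups of the same genotype, all 10 genes varied more than most genes of like level. The SD of log2 CPM within genotype was 0.53 at the median of the set, from 0.31 for Ier2 to 0.72 for Fosb. The median was 0.21 over all tested genes, which include many of low count, and 0.13 over 6128 tested genes whose mean log2 CPM was 5 or more. Among those 6128 genes, the SDs of the set lay between percentiles 94.6 (Ier2) and 99.4 (Fosb). The biological coefficient of variation estimated by edgeR was 1.45 (Ier2) to 2.89 (Fosb) times the trend for genes of the same abundance. For the p53 targets Cdkn1a, Ccng1 and Mdm2 that ratio was 0.99, 0.80 and 0.85. The SD was larger among WT than among KO pups for 9 of the 10 genes, with medians of 0.59 and 0.32. It was larger in WT for 6013 of the 14154 tested genes, and for 3266 of the 6128 genes of level 5 or more. Without WT pup 3 the median within-genotype SD of the set was 0.35, beside 0.21 over all tested genes.

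**Figure D3:**
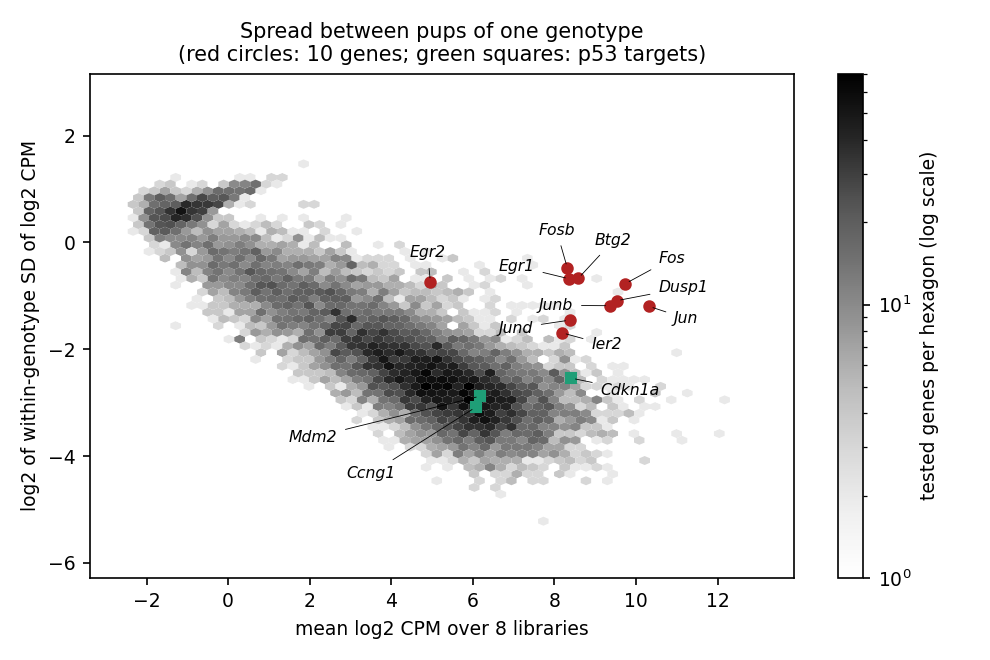
Within-genotype SD of log2 CPM, as its log2 (vertical axis), against mean log2 CPM over 8 libraries (horizontal axis) for the 14154 tested genes, shown as hexagons shaded by gene number. The 10 immediate early genes (red circles) lie along the upper edge for their level, and Cdkn1a, Ccng1 and Mdm2 (green squares) lie within the bulk.

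The genes rose and fell together from pup to pup. Across the 8 libraries, log2 CPM of Fos was compared with each of the 9 other genes, with two-sided exact permutation tests adjusted over the 9. Junb (Pearson r 0.98, exact permutation p 0.000298, adjusted 0.00134; Spearman rho 0.95, p 0.00114, adjusted 0.00685) and Fosb (r 0.99, p 0.000248, adjusted 0.00134; rho 0.90, p 0.00456, adjusted 0.00685) were the closest by r. Egr1, Dusp1, Ier2 and Jun followed with r of 0.96, 0.96, 0.95 and 0.92 (each with an adjusted exact permutation p of 0.00193) and rho of 0.90 to 0.93 (each with an adjusted p of 0.00685 in the same test). For Jund r was 0.86 (exact permutation p 0.00533, adjusted 0.00686) and rho 0.76 (adjusted 0.0414), and for Btg2 r was 0.84 (p 0.0129, adjusted 0.0146) and rho 0.79 (adjusted 0.0359). Egr2 did not pass, with r of 0.63 (exact permutation p 0.0763) and rho of 0.67 (p 0.0831). Without KO pup 2 and WT pup 3, the pups farthest from the median of Fos, r was 0.83 to 0.97 for 7 of the genes, 0.68 for Btg2 and 0.50 for Egr2. Without WT pup 3 alone, 6 of the 9 relations passed. All values within a library share its scaling and depth, and the pups share cages.

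The genes differed in how far they followed Fos. With genotype means removed, log2 CPM moved per unit of log2 Fos by 1.21 for Fosb, 1.03 for Egr1, 0.99 for Btg2, 0.78 for Dusp1, 0.75 for Junb and 0.70 for Jun. The slopes of Jund, Egr2 and Ier2 were 0.55, 0.54 and 0.52. Fosb and Egr1 thus spanned the widest ranges over the WT pups with Btg2 (4.39-fold, 3.75-fold and 4.07-fold), and Ier2 and Jund the narrowest (1.89-fold and 1.91-fold). WT pup 3 was the lowest WT pup for each of these genes and lay farthest from the median of Fos. The slopes were not fitted without it. Without WT pup 3, the r with Fos tested above was 0.97 for Fosb, 0.89 for Egr1, 0.58 for Btg2, 0.86 for Ier2 and 0.71 for Jund.

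Many of the genes whose pattern was most like that of Fos were also early response genes. The ranking covered 9871 tested genes whose mean log2 CPM was 3 or more. Likeness was the Pearson r over 8 libraries with genotype means removed, given as a description. It was above 0.8 for 4.60% of the genes ranked, and its median over them was 0.08. The 50 highest held 5 of the 9 other genes of the set (Junb, Ier2, Fosb, Dusp1 and Egr1) and 15 genes from the other early gene lists. Outside the set, the 8 highest were Amotl2 (0.99), Socs3 (0.99), Rasa1 (0.99), Klf4 (0.99), Sntb2 (0.98), Tob1 (0.98), Nr4a1 (0.98) and Btaf1 (0.98). Socs3 encodes a feedback inhibitor of cytokine signalling, Klf4 a zinc finger factor of endothelium, Nr4a1 an orphan nuclear receptor induced as an immediate early gene, and Tob1 a relative of Btg2. Nr4a1 measured 453, 768, 833 and 617 CPM in KO pups 1 to 4 and 539, 714, 929.9 and 251 CPM in WT pups 5, 1, 2 and 3. Amotl2, Rasa1, Sntb2 and Btaf1 followed the order closely over narrow ranges, between 1.25-fold and 1.57-fold from lowest to highest library. Without WT pup 3 the 50 highest held 3 genes of the set.

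**Figure D4:**
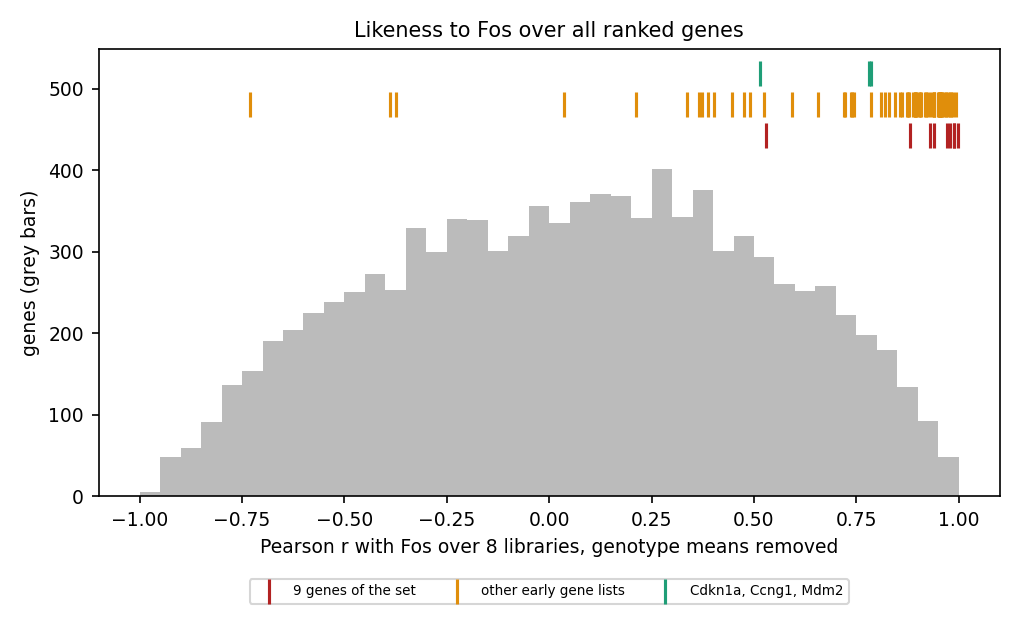
Distribution of the Pearson r with Fos over 9871 genes (grey bars, number of genes), with ticks above it for the other 9 genes of the set (red), genes of the other early gene lists (orange) and Cdkn1a, Ccng1 and Mdm2 (green). Of the red ticks, 8 stand above 0.8 and Egr2 stands apart at 0.53.

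Of the library measures compared with Fos, none passed a two-sided exact permutation test. Pearson r was 0.14 for log2 total counts (exact permutation p 0.703; rho 0.05, p 0.935), 0.02 for detected genes (p 0.953; rho 0.17, p 0.703), and 0.02 for the mean of the microglial markers (p 0.954; rho -0.12, p 0.793). For the mean of 10 heat shock genes, which encode chaperones induced by protein stress, r was 0.44 (exact permutation p 0.264; rho 0.36, p 0.389). Without KO pup 2 and WT pup 3 that r was 0.74, and those of total counts, detected genes and microglial markers were 0.55, 0.48 and 0.10. Over these 4 measures the adjusted p was 0.954 for r and 0.935 for rho. Taken gene by gene with genotype means removed, the median r with Fos over the 10 heat shock genes was 0.79. For 5 of them r was above 0.8, beside 4.60% of the genes ranked for likeness to Fos. The share of mitochondrial transcripts separated the genotypes, at 2.04 to 2.48% in KO and 1.66 to 1.89% in WT, and was therefore not correlated with Fos. Markers of mural cells, which wrap the vessels, also varied. The summed level of 8 of 8 mural markers, none at 0 in every library, was 2029, 1384, 475 and 2665 CPM in WT pups 5, 1, 2 and 3 and 1765, 2205, 1755 and 2642 CPM in KO pups 1 to 4. It was thus highest in WT pup 3 and lowest in WT pup 2, while KO pups 1 and 3, lowest and highest of the KO pups for the mean of the set, had like sums. With genotype means removed, the median r with Fos was -0.77 over 7 mural markers, -0.58 over 5 astrocyte markers, -0.61 over 2 of the oligodendrocyte lineage, -0.57 over 5 erythroid markers and -0.09 over 10 microglial markers. The part of these cells in the results was not tested, except for the microglial term above, and fewer cells of a type cannot be told apart from less RNA per cell in these bulk samples.

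The p53 targets Cdkn1a, Ccng1 and Mdm2 separated the genotypes, whereas the immediate early genes, with the p53 targets Btg2 and Dusp1 among them, did not. Cdkn1a (ENSMUSG00000023067; chromosome 17, 29090976 to 29100727, plus strand), which encodes the cell-cycle inhibitor p21, measured 392, 488, 437 and 454 CPM in KO pups 1 to 4 and 285, 245, 308 and 225 CPM in WT pups 5, 1, 2 and 3. Ccng1 (ENSMUSG00000020326; chromosome 11, 40748552 to 40755311, minus strand), which encodes cyclin G1, measured 112, 117, 115 and 114 CPM in KO pups 1 to 4 and 44.3, 41.4, 38.3 and 34.0 CPM in WT pups 5, 1, 2 and 3. Mdm2 (ENSMUSG00000020184; chromosome 10, 117688875 to 117710758, minus strand), the ubiquitin ligase that degrades p53, measured 73.3, 93.6, 91.1 and 80.2 CPM in KO pups 1 to 4 and 62.4, 61.1, 68.9 and 58.5 CPM in WT pups 5, 1, 2 and 3. Each gene had its 4 KO values above its 4 WT values. In edgeR's quasi-likelihood test Cdkn1a and Ccng1 rose, by 0.74 (SE 0.11, adjusted p 0.0111) and 1.53 (SE 0.09, adjusted p 9.94e-06) on the log2 scale. Mdm2, at 0.43 (SE 0.10, adjusted p 0.0997), did not pass. The astrocyte markers and the mitochondrial share given above also moved with genotype, and their part in these differences was not tested.

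Because the genotypes fell into separate clusters for all 3 genes, no correlation was computed over the 8 pups, and the relation to Fos was tested with genotype in the fit. With log2 CPM of Fos as a second term, 0 of the 3 genes passed the edgeR test of that term, where 0.283% of all tested genes did, Fos itself among those tested. The coefficient was 0.23 for Cdkn1a (SE 0.08, edgeR adjusted p 0.457), 0.18 for Mdm2 (SE 0.08, adjusted p 0.612) and 0.10 for Ccng1 (SE 0.09, adjusted p 0.873), in log2 units per unit of log2 Fos. At an unadjusted p of 0.05 the count was 2 (Cdkn1a and Mdm2), beside 7.96% of all tested genes. Within each genotype Cdkn1a and Mdm2 were lowest in the pup with the least Fos (KO pup 1, WT pup 3) and highest in the pup with the most (KO pup 2, WT pup 2). Likeness to Fos was 0.78 for Cdkn1a, 0.78 for Mdm2 and 0.52 for Ccng1, and 502, 521 and 1841 of the 9871 genes ranked above them. Leaving out each pup in turn, it ranged from 0.61 to 0.91 for Cdkn1a and from 0.70 to 0.89 for Mdm2. For Ccng1 it ranged from -0.47, without WT pup 3, to 0.79.

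**Figure D5:**
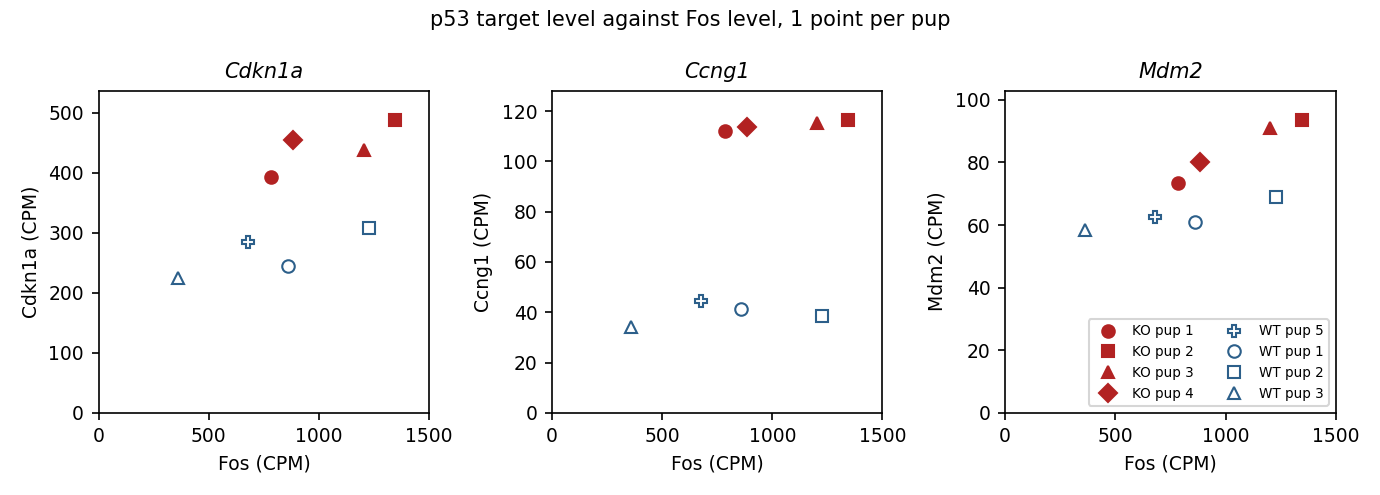
CPM of Cdkn1a, Ccng1 and Mdm2 (vertical axes) against CPM of Fos (horizontal axes), with 1 symbol per pup (filled red KO, open blue WT). The KO pups lie above the WT pups in each panel over an overlapping range of Fos.

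With the mean log2 CPM of the 10 genes as a term of the fit, the genotype difference was 0.66 for Cdkn1a (edgeR adjusted p 0.00980), 1.499 for Ccng1 (adjusted p 4.33e-05) and 0.36 for Mdm2 (adjusted p 0.101). In that fit 0.685% of all tested genes were called, and 0.339% were called lower in KO. The mean itself lay between 8.28 and 9.02 over the KO pups and between 7.62 and 9.03 over the WT pups. The call of Cdkn1a was lost with cage as a term, by the titles (0.64, edgeR adjusted p 0.423) and by the file labels (0.97, adjusted p 0.131). When KO pup 2 or WT pup 1 was left out, Cdkn1a narrowly missed the threshold, with log2 fold changes of 0.68 and 0.70 (edgeR adjusted p 0.0589 and 0.0512). Ccng1 stayed called in each of these, with log2 fold changes of 1.37 and 1.75 under the cage terms. Mdm2 was called by DESeq2 (adjusted p 0.00876), without KO pup 1 (edgeR adjusted p 0.0453) and with KO pup 1 and WT pup 2 both left out (adjusted p 0.0327).

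Other genes of the pathway were read from the same fit, and 0 members of the 7 lists passed the edgeR test, where 0.389% of all tested genes did. The counts at an unadjusted p of 0.05 stand beside 11.1% of all tested genes. Upstream, 21 of 21 genes of the signalling that acts on serum response elements were tested, with a median log2 fold change of -0.06 and 3 at an unadjusted p of 0.05. The groups did not overlap for 3 of them, beside 7.19% of all tested genes. The lowest p values were those of the kinase gene Rps6ka1 (95.4 ± 11.3 CPM in KO, 118 ± 5.55 in WT; edgeR adjusted p 0.211), the coactivator gene Mrtfa (log2 fold change -0.40, adjusted p 0.242), Elk3 (-0.23, adjusted p 0.361) and Srf, which encodes serum response factor (-0.16, adjusted p 0.476). Of 14 other AP-1 subunits 13 were tested, with a median of -0.09 and 1 at an unadjusted p of 0.05, and Atf7, Maf, Maff and Mafg measured -0.19, 0.41, -0.29 and -0.17. Of the EGR family and its NAB corepressors 4 of 5 were tested, with a median of 0.11 and 0 at an unadjusted p of 0.05. Egr3 measured 23.4, 45.0, 48.0 and 41.9 CPM in KO pups 1 to 4 and 23.2, 38.6, 38.4 and 9.81 CPM in WT pups 5, 1, 2 and 3, with WT pup 3 again lowest. Egr4, Nab1 and Nab2 measured 0.08, 0.03 and 0.14 on the log2 scale.

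Feedback phosphatases and further early genes likewise spread without a call in the main fit, where 0.389% of all tested genes were called. Counts at an unadjusted p of 0.05 again stand beside 11.1% of all tested genes. All 10 other dual-specificity phosphatase genes were tested, with a median of 0.09 and 1 at an unadjusted p of 0.05. Dusp8 averaged 20.7 ± 1.60 CPM over the KO pups and 30.01 ± 7.55 CPM over the WT pups (log2 fold change -0.54, edgeR adjusted p 0.257), and Dusp2, Dusp6 and Dusp16 measured 0.35, 0.20 and -0.18. Without WT pup 3, Dusp8 passed (-0.69, edgeR adjusted p 0.0479), and with the cages of the file labels as a term Dusp2 did (1.22, adjusted p 0.0440). The BTG and TOB family and partners had 6 of 6 tested, a median of 0.08 and 0 at an unadjusted p of 0.05, with Btg1, Tob2, Cnot7 and Tob1 at 0.27, 0.18, -0.09 and 0.15. Of 39 other immediate early genes 38 were tested, with a median of 0.02, 20 positive and 5 at an unadjusted p of 0.05. Ccn2, a matricellular protein gene, averaged 125 ± 41.4 CPM over the KO pups and 238 ± 65.8 CPM over the WT pups (-0.94, edgeR adjusted p 0.159). Cebpd, a transcription factor of the acute phase response, averaged 44.8 ± 10.04 and 75.9 ± 22.5 CPM (-0.76, edgeR adjusted p 0.182) and was called by DESeq2 (adjusted p 0.0112), where 2.2% of genes were. Ier5 and Ier5l measured 0.46 and 0.63 on the log2 scale. The 10 heat shock genes had a median of -0.14 and 0 at an unadjusted p of 0.05, with Hsph1, Hspa1b, Hspe1 and Hspa1a at -0.69, -0.56, -0.18 and -0.39. Reads of the near-identical Hspa1a and Hspa1b cannot be fully separated.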

How the data were processed

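The authors deposited 1 table of whole-number read counts per Ensembl gene for each of the 8 libraries. Alignment to GRCm38 with STAR and counting with featureCounts are named in the submitters' processing notes. The sources used here give no versions, annotation release or strand setting. Values in CPM were computed from these deposited counts. Per the labels' protocols, cells were sorted into lysis buffer and stranded mRNA libraries were read as single ends of 100 bp. Symbols and coordinates came from GENCODE M21, which named 25587 of 25700 identifiers, and promoters from RefSeq (GRCm38.p6).

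Groups came from the titles. Genes were kept by filterByExpr (minimum count 10, minimum total 15) and fitted with edgeR 4.0.16 in R 4.3.3, with TMM scaling (factors 0.978 to 1.026) and genotype as the term. Adjusted p values are Benjamini-Hochberg over all 14154 tested genes. Log2 CPM used a prior count of 2. Alternatives used DESeq2 1.42.0, limma 3.58.1 and other scaling, filters, terms, libraries and depths. The fit was tested on simulated data. Exact permutations used all 40320 orders of 8 libraries. Separate pups were the replicates.

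The genes, lists and rules were chosen with earlier results of these data known. Named were the 10 genes, Cdkn1a, Ccng1 and Mdm2, up to 4 genes of lowest p and any called gene per list, and the 8 genes most like Fos.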

Additional observations from a re-analysis of the deposited data

How the results depend on the processing

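None of the 10 genes was called in any of 20 alternative settings. Their fold changes reversed as follows. Without 1 library at a time, log2 fold changes ranged from -0.037 to 0.40 for Jun (-0.0068 without KO pup 3), -0.032 to 0.39 for Junb, -0.031 to 0.27 for Jund (-0.015 without WT pup 3), -0.0067 to 0.54 for Egr1, -0.062 to 0.22 for Ier2, -0.054 to 0.40 for Dusp1 and -0.36 to 0.29 for Btg2. Values below 0 in all but Btg2 came without WT pup 3 or KO pup 3, and Btg2 was above 0 without KO pup 1 (0.019) or WT pup 2. Btg2 was also above 0 with limma-voom (0.026), with the cages of the file labels (1.15), with pup number as a block (0.093) and with KO pup 1 and WT pup 2 both left out (0.41). Of Cdkn1a, Ccng1 and Mdm2, 2 were called, 1 with either cage term or the block, and 1 to 3 without 1 library. Members of the other lists called numbered 0, but 1 with DESeq2 and with the cages of the file labels. They numbered 3 with the mean of the 10 genes as a term, and 0 to 1 without 1 library. The number of relations with Fos that passed was 6 to 9 without 1 library. The median spread was 0.35 to 0.57 and the number of genes among the 50 most like Fos was 3 to 6. The r of Fos reversed without 1 library for total counts (-0.35 to 0.30), detected genes (-0.14 to 0.47) and microglial markers (-0.27 to 0.26). The slope of Ccng1 on Fos with genotype in the fit, a test added after seeing the data, was -0.081 without WT pup 3, and -0.081 to 0.20 without 1 library. The cause of these changes was not tested beyond the libraries named. Leaving out WT pups 2 and 3 together was chosen after seeing the data; it called 0 of the 10 genes, with a median of 0.19.

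Pup numbers 1, 2 and 3 occur in both groups. With the block 0.0777% of all tested genes were called. Deviations from the group means correlated across genes at -0.03, 0.03 and -0.07 between pups of the same number by title. Between pups of different numbers the values ran from -0.24 to 0.26. These values give no sign of a pairing by number, but so few pairs cannot settle it. With the pup number as a replicate block, 0 of the 10 genes and 1 of Cdkn1a, Ccng1 and Mdm2 were called, and no list member was. Log2 fold changes were 0.77 for Cdkn1a (edgeR adjusted p 0.125) and 1.60 for Ccng1 (edgeR adjusted p 0.0113).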

Other observations

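In the fit with the level of the immediate early genes as a term, a few other early genes were called lower in KO. With the mean log2 CPM of the 10 genes as a term, edgeR called Dusp8 (log2 fold change -0.67, adjusted p 0.0219), Nfkbia (-0.56, adjusted p 0.0229) and Sik1 (-0.60, adjusted p 0.0229) among the members of the 7 lists, where 0.339% of all tested genes were called lower in KO. Dusp8 encodes a phosphatase of JNK and p38 kinases, Nfkbia an inhibitor of NF-kappa B, and Sik1 a kinase induced by cyclic AMP. These genes were singled out after their values were seen. Without that term none passed (edgeR adjusted p 0.257, 0.672 and 0.454). Nfkbia measured 338, 472, 528 and 467 CPM in KO pups 1 to 4 and 521, 559, 902 and 318 CPM in WT pups 5, 1, 2 and 3. Sik1 measured 142, 173, 173 and 179 CPM in the KO pups and 225, 225, 320.3 and 134 CPM in the WT pups in the same order. Dusp8 measured 18.4, 21.9, 21.7 and 20.8 CPM in the KO pups and 30.7, 32.1, 37.6 and 19.6 CPM in the WT pups. For Dusp8 and Sik1, WT pups 5, 1 and 2 stood above every KO pup and WT pup 3 did not. WT pup 3 also had the lowest mean of the 10 genes (7.62 log2 CPM), and the fit with that mean as a term was not repeated without it.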
